A study of Mus musculus with 7 samples.

Results

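Scavenger receptors were examined as a set of 8 genes fixed by name: Msr1, Marco, Cd36, Olr1, Cd68, Stab1, Cd163 and Cd5l. The set is 8 of the 48440 genes in the table of LPS-treated cells and 8 of the 55352 genes in the table of transduced cells, and all 8 passed the filter on low values in both. RNA-seq was performed on bone-marrow-derived macrophages (BMDMs), wild-type mouse marrow cells grown with the macrophage growth factor M-CSF. In the LPS experiment, 1 library was made from untreated BMDMs (0 h) and 1 each after 2 h and 4 h of 100 ng/mL LPS, a bacterial outer membrane lipid. In the transduction experiment, RNA was taken 48 h after adding AAV-GFP (2 samples) or AAV-Shisa3 (2 samples). Both vectors used the ubiquitous CAG promoter, so every AAV sample, the controls included, had been exposed to a viral vector. The comparison asks what forced Shisa3 expression changes in macrophages, and the time course follows the response to LPS. The labels do not say whether the 2 samples of a group came from separate mice or cultures, so p-values here measure the spread between these samples, which may be technical.

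Scavenger receptors are surface and endosomal proteins that bind polyanionic and lipid ligands, among them oxidised low density lipoprotein (LDL), bacterial surface molecules and dying cells, and carry them into the cell. They are grouped by structure rather than by ancestry. Macrophages are the cells best known for them, because uptake through these receptors is not shut down by the cholesterol already taken up and can fill the cell with lipid. Msr1 and Marco are trimeric class A receptors with collagen-like stalks, and Cd36 is the class B receptor for oxidised LDL and long-chain fatty acids. Cd68 is a heavily glycosylated class D protein of late endosomes and lysosomes, and Olr1 is the C-type lectin that serves as the class E receptor for oxidised LDL. Stab1 is a very large multidomain receptor that clears altered and extracellular matrix proteins. Cd163 takes up haemoglobin bound to haptoglobin, and Cd5l, also called AIM, is a secreted protein built from the same cysteine-rich scavenger domains as Cd163.

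The genes are not clustered on 1 chromosome. In GENCODE M21 (GRCm38), Msr1 lies at chr8:39581685-39642673, Marco at chr1:120474538-120505024, Cd36 at chr5:17781690-17888801 and Cd68 at chr11:69664213-69666153, all on the minus strand. Stab1 is at chr14:31139013-31168641 and Olr1 at chr6:129485244-129507165, also on the minus strand. Cd163 shares chromosome 6 with Olr1, at chr6:124304656-124330527, and Cd5l is at chr3:87357881-87371073, both on the plus strand. The identifiers are ENSMUSG00000025044 for Msr1, ENSMUSG00000026390 for Marco, ENSMUSG00000002944 for Cd36, ENSMUSG00000030162 for Olr1, ENSMUSG00000018774 for Cd68, ENSMUSG00000042286 for Stab1, ENSMUSG00000008845 for Cd163 and ENSMUSG00000015854 for Cd5l.

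The 250 bases before the transcription start were read from RefSeq (GRCm38.p6) for 7 of the 8 members. Olr1, Marco and Stab1 are shown because the results below turn on them, and Cd68 is shown as a second gene with a match to the AP-1 letters. They were searched on both strands for GGGNNTTTC, a shortened NF-kB motif, TGANTCA, the AP-1 motif, and GAGGAAG, a motif of ETS factors. Capitals mark a match, and each sequence is written 5′ to 3′ along the gene. The Olr1 window is chr6:129507166-129507415, the Marco window chr1:120505025-120505274, the Stab1 window chr14:31168642-31168891 and the Cd68 window chr11:69666171-69666420, all on the minus strand.
Olr1: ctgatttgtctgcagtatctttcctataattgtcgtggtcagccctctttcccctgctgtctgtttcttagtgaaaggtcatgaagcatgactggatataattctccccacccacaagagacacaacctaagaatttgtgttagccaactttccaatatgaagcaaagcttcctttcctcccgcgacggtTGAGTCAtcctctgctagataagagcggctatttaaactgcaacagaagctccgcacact
Marco: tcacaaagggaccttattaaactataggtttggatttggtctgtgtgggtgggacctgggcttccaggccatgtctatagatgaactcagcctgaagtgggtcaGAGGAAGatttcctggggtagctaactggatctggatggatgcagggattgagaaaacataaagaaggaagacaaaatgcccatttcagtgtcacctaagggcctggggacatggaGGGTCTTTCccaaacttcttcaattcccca
Stab1: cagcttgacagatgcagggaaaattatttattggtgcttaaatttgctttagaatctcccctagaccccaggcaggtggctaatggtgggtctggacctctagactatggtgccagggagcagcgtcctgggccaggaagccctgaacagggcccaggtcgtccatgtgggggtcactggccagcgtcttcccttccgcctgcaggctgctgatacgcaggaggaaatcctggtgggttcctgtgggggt
Cd68: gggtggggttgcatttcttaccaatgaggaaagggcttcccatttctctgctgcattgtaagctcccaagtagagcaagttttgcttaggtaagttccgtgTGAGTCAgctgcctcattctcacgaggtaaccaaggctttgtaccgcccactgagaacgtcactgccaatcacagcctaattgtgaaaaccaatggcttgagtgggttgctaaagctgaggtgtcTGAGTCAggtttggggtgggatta
GGGNNTTTC was found in 1 of the 7 windows, in Marco starting 30 bases before the start site, and in 3.72% of 32851 mouse promoters of the same length. TGANTCA was found in 2 of the 7, starting 60 bases before the start in Olr1 and 149 and 24 bases before it in Cd68, against 6.75% of all promoters. GAGGAAG was found in 2 of the 7, Marco and Cd5l, against 10.6% of all promoters. Of the 2 members with the AP-1 letters, Olr1 was far higher under LPS and Cd68 was not. A match is a string of letters only and does not show that a factor was bound.

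Under LPS, the class A receptors and Olr1 were at least 2-fold higher than at 0 h at both times and no other member was. Marco was 52.38-fold and Msr1 18.45-fold higher at 4 h, while Olr1 was 56.78-fold higher at 2 h and 7.76-fold higher at 4 h. Cd163 was lower at 4 h, at 0.23 of its 0 h value, and Stab1 stood at 0.52. These folds compare single libraries and have no replicate check. The values are reads divided by a factor per library, and the intervals given with the folds are exact 95% intervals that cover counting error only.

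The 0 h library held 15588502 reads, the 2 h library 7263258 and the 4 h library 32659392. Macrophage markers were abundant at each time, with Lyz2, Csf1r and Adgre1 between 11516 and 384910 reads. The T and B cell markers Cd3e, Cd3d, Cd79a and Ms4a1 had at most 1 read each. The summed level of the neutrophil and granulocyte precursor markers was 473, 629 and 397 RPM (reads scaled to equal library totals) at 0, 2 and 4 h. With the authors' values, 5 of these 9 markers were at least 2-fold higher at 2 h, the time at which Olr1 was highest, against 20.5% of all genes, and at 4 h 0 were higher and 2 lower (Retnlg and Elane), with a median log2 change of 1.19 at 2 h and -0.11 at 4 h. With library totals, Camp alone passed 2-fold at 2 h (2.28), and S100a9, Retnlg, Ngp and Ltf stood between 1.45 and 1.62. The summed level of the 6 fibroblast markers ran from 30.7 to 46.0. The 5 endothelial markers summed to 10.8, 20.9 and 93.8 RPM, mostly through Kdr, which had 141, 126 and 2886 reads. Pecam1 had 25, 24 and 159 reads, Cdh5 had 2, 2 and 15, and Tek and Emcn had at most 1. The 3 endothelial markers kept were all at least 2-fold higher at both times with the authors' values, against 20.5% and 22.2% of all genes. Their median log2 change was 2.36 at 4 h. With library totals Kdr was 1.92-fold higher at 2 h and Pecam1 2.06-fold, and at 4 h they were 9.77-fold and 3.04-fold. Cdh5 had too few reads for a fold, the same 2 at 0 h and 2 h. The 5 dendritic cell markers summed to 5.65, 8.26 and 16.2 RPM. With the authors' values 3 were at least 2-fold higher and 1 lower at 2 h, against 20.5% and 24.7% of all genes. At 4 h 2 were higher and 2 lower, against 22.2% and 23.6%, with a median log2 change of -0.40. Of these, Ccr7 had 20, 29 and 483 reads, while Flt3 and Cd209a stood at 0.45 and 0.42 of their 0 h values. Xcr1, the other marker higher at 4 h, had only 2, 0 and 8 reads. The part of these cells in the members' levels was not tested, and in bulk samples fewer cells of a type cannot be told apart from less RNA per cell.

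Msr1, which takes up acetylated and oxidised LDL, had deposited values of 959, 6049 and 17692 at the successive times, from 1491, 2770 and 32558 reads. Each step was upward, 6.31-fold (5.92 to 6.72) by 2 h and a further 2.92-fold (2.81 to 3.04) from 2 h to 4 h. Marco, a receptor for bacteria and inhaled particles, had values of 20.6, 262 and 1078 from 32, 120 and 1984 reads. It too was higher at each later time, by 12.73-fold (8.56 to 19.44) at 2 h and 52.38-fold (36.98 to 76.79) at 4 h. The interval of the Marco fold is wide because only 32 reads were counted at 0 h. The 2 class A genes therefore differed in starting level but shared an order of time points.

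Olr1 had a different course. Its values were 7.08 at 0 h, 402 at 2 h and 54.9 at 4 h, from 11, 184 and 101 reads. The 2 h library was highest, with a fold over 0 h of 56.78 (31.00 to 115.75). At 4 h the value was 0.14 of that at 2 h (0.11 to 0.18), still 7.76-fold (4.16 to 16.03) above 0 h. Of the 3 members higher under LPS, Olr1 alone was lower at 4 h than at 2 h.

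Cd36 had values of 2519, 1638 and 2399, from 3916, 750 and 4415 reads. It was lowest at 2 h, at 0.65 of the 0 h value (0.60 to 0.70), and at 4 h stood at 0.95 (0.91 to 0.99). Cd68, the lysosomal member, had values of 7681, 6802 and 8264 and stayed between 0.89 and 1.08 of its 0 h value. Stab1 had values of 47616, 43429 and 24957, from 74022, 19888 and 45927 reads. Its value was close to the start at 2 h, at 0.91 (0.90 to 0.93), and lower at 4 h, at 0.52 (0.52 to 0.53).

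The 2 members with cysteine-rich scavenger domains of the Cd163 type did not move together. Cd163 had values of 46.3, 54.6 and 10.9, from 72, 25 and 20 reads. The fold was 1.18 (0.72 to 1.88) at 2 h, an interval that includes no change, and 0.23 (0.14 to 0.39) at 4 h. Cd5l, which binds lipids and blocks fatty acid synthesis after uptake into cells, had values of 305, 430 and 337. Its fold was 1.41 (1.19 to 1.67) at 2 h and 1.10 (0.98 to 1.25) at 4 h.

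**Figure D1:**
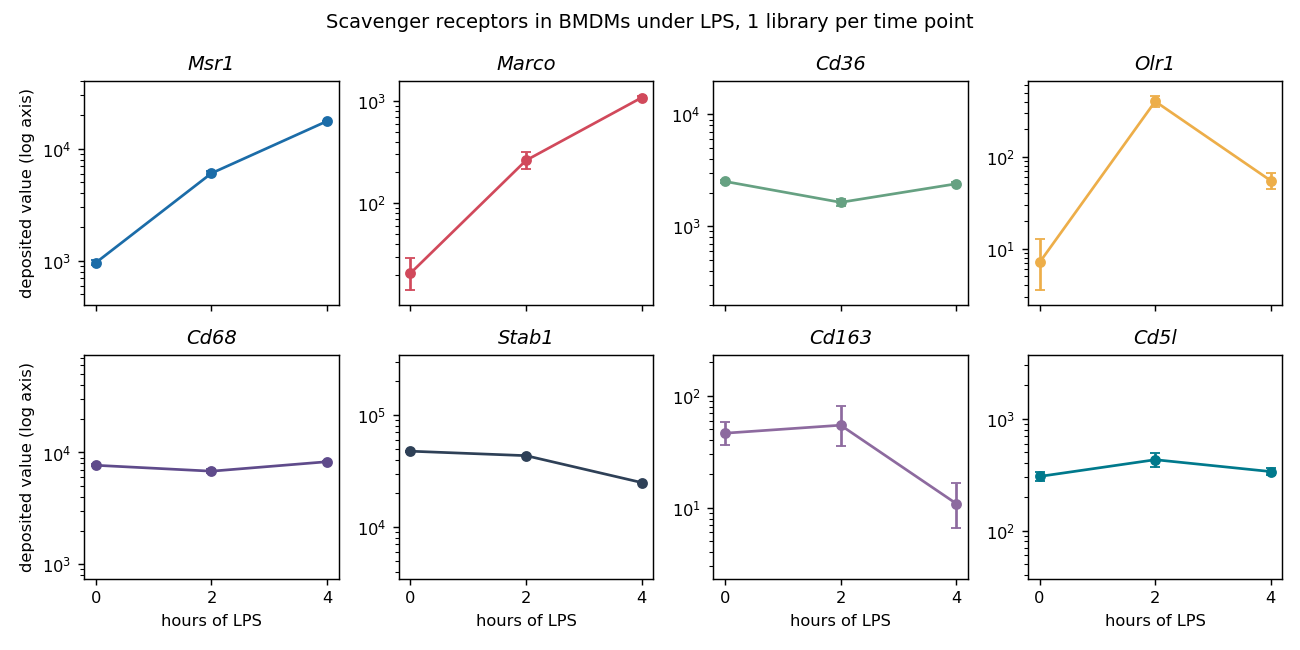
Deposited values of the 8 scavenger receptors (log axis, reads divided by a factor per library) against hours of LPS, 1 library per point, with exact 95% Poisson intervals for counting error as bars; each panel spans at least the same number of decades. Msr1 and Marco are highest at 4 h, at 17692 and 1078, Olr1 is highest at 2 h, at 402, and Cd163 is lowest at 4 h, at 10.9.

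Counted on log2(value + 1), 3 of the 8 members passed 2-fold upward at 2 h and 0 downward, against 20.5% and 24.7% of the 17854 genes kept. The 4 h library had 3 members past 2-fold upward, Msr1, Marco and Olr1, and 1 downward, Cd163, against 22.2% and 23.6% of all genes. From 2 h to 4 h, Msr1 and Marco were higher and Olr1 and Cd163 lower, 2 members each way, against 17.9% and 15.2%. The median log2 change of the members was 0.36 at 2 h and 0.12 at 4 h, and that of all genes kept was -0.05 and -0.04. With 8 genes such shares move in coarse steps, and their differences from the shares over all genes were not tested.

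How the libraries are scaled moved the size of every fold and the direction of the small ones. Scaling the reads to equal library totals moved the median of all genes by -0.65 on the log2 scale at 2 h and by -0.78 at 4 h, and centring each library on its median moved it by 0.31 and 0.37. Over all genes, 3958 passed 2-fold upward and 4207 downward at 4 h with the authors' values, 2468 and 7912 with library totals, and 5285 and 3036 with centring. Marco, Msr1 and Olr1 were higher at both times under each scaling, with folds of 29.59, 10.42 and 4.38 at 4 h against library totals, and Cd163 at 4 h was lower under each. Stab1 at 4 h was also lower under each, with log2 changes between -0.56 when centred and -1.76 with totals. The 4 h changes of Cd68 and Cd5l, 0.11 and 0.14, turned to -0.72 and -0.68 with library totals. The 4 h change of Cd36 was -0.07 with the authors' values, 0.30 when centred and -0.89 with totals. At 2 h the direction of Cd68, Stab1, Cd163 and Cd5l also depended on the scaling.

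**Figure D2:**
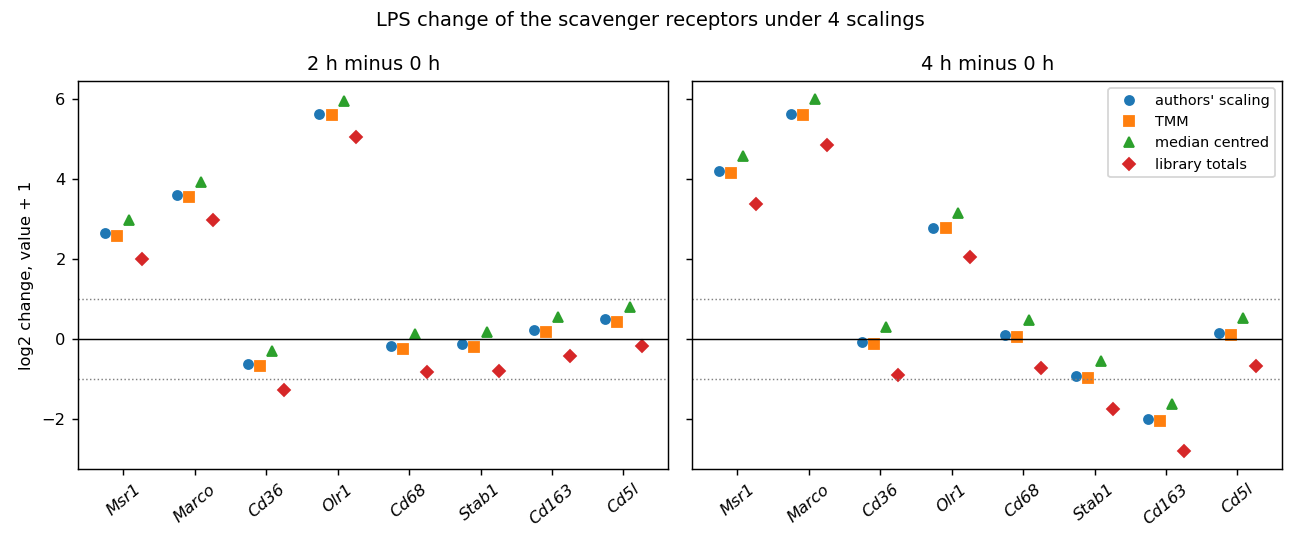
Log2 change of each scavenger receptor at 2 h (left) and 4 h (right) of LPS against 0 h, on log2(value + 1), with the authors' scaling, edgeR's trimmed mean of M-values (TMM), median centring and equal library totals; dotted lines mark a 2-fold change. Marco, Msr1 and Olr1 are above the upper line in every case, while Cd68 at 4 h lies between -0.72 and 0.48.

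In AAV-Shisa3 transduced BMDMs, Olr1 and Stab1 were higher than in AAV-GFP transduced BMDMs and no member was called lower. Levels are in TPM, a transcript abundance scaled for gene length and depth. Olr1 rose by 1.79 ± 0.24 (SE) on the log2(TPM + 1) scale and Stab1 by 0.54 ± 0.075 (SE, n = 2 per group, limma, Benjamini-Hochberg adjusted p = 0.0233 and 0.0236). Msr1, Marco, Cd36 and Cd5l each had both AAV-Shisa3 samples below both AAV-GFP samples but did not pass the test, and Cd68, also abundant, had overlapping groups. Over all 11218 genes tested, 2.23% were called higher and 4.1% lower, against 2 and 0 of the 8 members. At an unadjusted p under 0.05 with limma, 2 further members were lower, Cd36 and Cd5l, as were 2216 of the 11218 genes. An exact permutation test of 2 samples against 2 cannot go below p = 0.333, so the calls rest on the variance that limma shares across genes.

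The transduced gene was checked in each sample. Shisa3 measured 7.88 and 10.9 TPM with AAV-GFP, against 12.3 and 17.8 TPM with AAV-Shisa3. The groups did not overlap, but the log2 fold change of 0.63 ± 0.22 (SE, n = 2 per group) did not pass the test (limma, adjusted p = 0.138). In the LPS libraries Shisa3 had 1 read at 0 h, 164 at 2 h and 3174 at 4 h. Whether transcripts from the vector were counted under the gene is not given in the sources used here.

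Olr1 measured 0.84 and 1.69 TPM with AAV-GFP, against 5.85 and 7.69 TPM with AAV-Shisa3. The lower AAV-Shisa3 sample was well above the higher AAV-GFP sample, and the group means, 1.26 ± 0.60 and 6.77 ± 1.30 TPM (SD, n = 2), differed 5.35-fold. The 95% interval of the log2 fold change was 1.20 to 2.39. Stab1 measured 323 and 340 TPM with AAV-GFP, against 501 and 466 TPM with AAV-Shisa3. Its groups did not overlap either, with means of 332 ± 12.0 and 484 ± 24.7 TPM (SD, n = 2), a 1.46-fold difference with a log2 interval of 0.36 to 0.73. Olr1 changed more and from a level near the filter, whereas Stab1 changed less and from a high level.

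Both calls were lost whenever 1 of the 4 samples was left out, with adjusted p (limma) of 0.105 to 0.170 for Olr1 and 0.0926 to 0.180 for Stab1, while the log2 fold changes stayed at 1.52 to 2.07 and 0.49 to 0.59. They were also lost without the mean-variance trend (adjusted p = 0.0557 and 0.0724, limma) and without the filter (0.132 and 0.105), where over all alternatives the adjusted p ran from 0.0128 to 0.170 for Olr1 and from 0.0143 to 0.180 for Stab1.

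The class A receptors were among the most abundant members here. Msr1 was at 870 and 898 TPM in AAV-GFP and 710 and 825 TPM in AAV-Shisa3 samples, a log2 fold change of -0.21 (interval -0.43 to 0.02, limma adjusted p = 0.204). Marco was at 1589 and 1463 TPM in AAV-GFP and 1440 and 1219 TPM in AAV-Shisa3 samples, a change of -0.20 (-0.45 to 0.05, limma adjusted p = 0.254). In both genes the samples were ordered by group, but the 2 AAV-Shisa3 samples stood further apart than the gap between the groups.

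Cd36 was at 859 and 950 TPM in AAV-GFP and 716 and 811 TPM in AAV-Shisa3 samples, a log2 fold change of -0.24 (-0.48 to -0.01, limma adjusted p = 0.162). Cd5l was at 384 and 377 TPM against 324 and 327 TPM, with replicates close together in both groups, and a change of -0.23 (-0.39 to -0.06, limma adjusted p = 0.0980). The unadjusted intervals of these 2 genes excluded 0, yet neither passed after adjustment. Cd68 was at 1287 and 1127 TPM in AAV-GFP and 1155 and 1130 TPM in AAV-Shisa3 samples, which overlapped (change -0.08, limma adjusted p = 0.601), and its sign turned to 0.040 after median centring. Cd163 was close to the filter, at 1.54 and 1.68 TPM against 1.75 and 2.04 TPM (change 0.15, interval -0.30 to 0.60, limma adjusted p = 0.631).

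**Figure D3:**
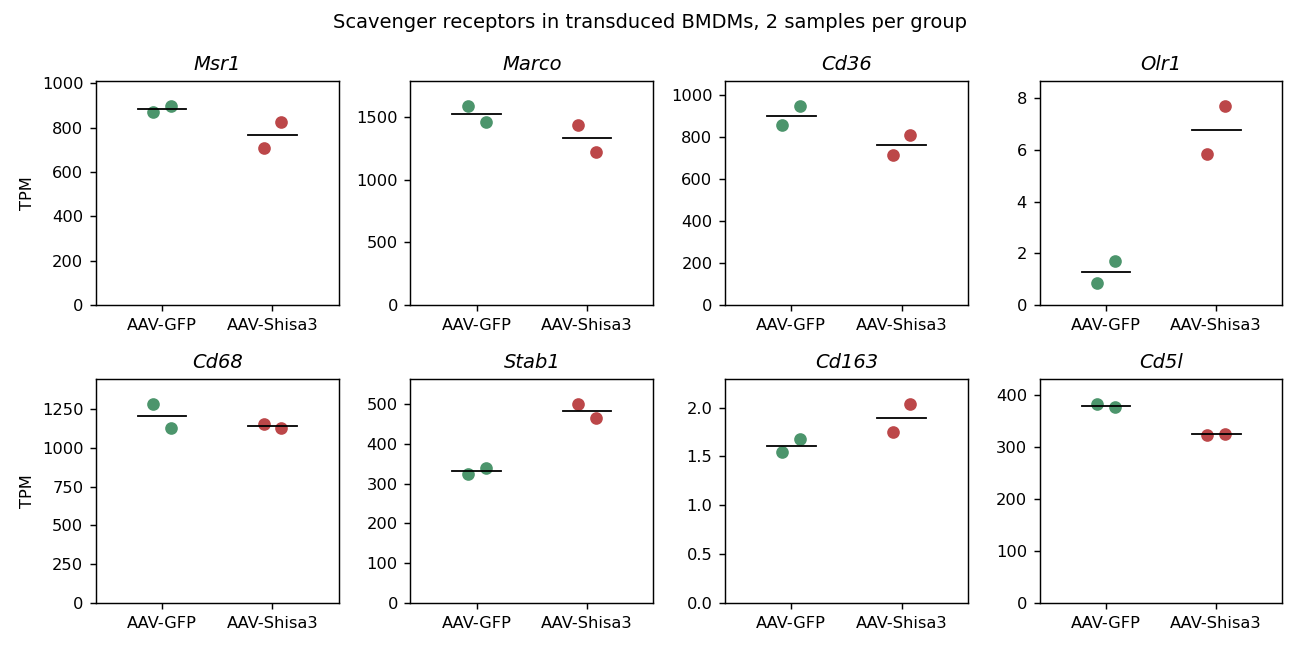
TPM of each scavenger receptor in the 2 AAV-GFP and 2 AAV-Shisa3 samples, on linear axes from 0; points are samples and lines are group means. Olr1 runs from 0.84 to 1.69 TPM in AAV-GFP and from 5.85 to 7.69 TPM in AAV-Shisa3 samples, Stab1 separates between 340 and 466 TPM, and Cd68 overlaps.

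Both AAV-Shisa3 samples lay above both AAV-GFP samples in 3 members (Olr1, Stab1 and Cd163) and below them in 4 (Msr1, Marco, Cd36 and Cd5l), against 18.2% and 41.2% of all genes tested. The median log2 fold change was -0.14 over the members and -0.10 over all genes. Centring each sample on its median moved the median of all genes to 0.01 and the calls over all genes from 250 higher and 460 lower to 410 higher and 230 lower. Olr1 and Stab1 remained the called members under that centring, and Msr1, Marco, Cd36 and Cd5l then had changes from -0.13 to -0.087 on the log2 scale.

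Markers of other cells were read beside these results. Of the 9 neutrophil and granulocyte precursor markers 8 were tested, and each had both AAV-Shisa3 samples above both AAV-GFP samples, as did 18.2% of all genes. Of these, Retnlg reached the filter only through the AAV-Shisa3 samples (0.21 and 0.69 TPM against 2.03 and 1.24 TPM), and 2 were called higher, Ngp and Camp, against 2.23% of all genes. The 9 summed to 593 and 565 TPM in AAV-GFP and 1092 and 683 TPM in AAV-Shisa3 samples. Ly6g was between 0.10 and 0.29 TPM in the 4 samples. The macrophage markers summed to between 33639 and 37189 TPM, of which Lyz2 alone was between 26378 and 29528. Of the 8 tested, Cd14 was called higher and 0 lower, against 2.23% and 4.1% of all genes. At an unadjusted p under 0.05 with limma, Csf1r was higher and Fcgr1 lower (0.31 and -0.35 on the log2 scale). The fibroblast markers summed to between 9.42 and 16.4, the endothelial markers to between 9.71 and 12.1 and the dendritic markers to between 2.48 and 3.59. The T and B cell markers summed to at most 0.33 TPM, with Cd3e and Cd3d at 0, and Cd209a was at 0. The part of the neutrophil markers in the rise of Olr1 and Stab1 was not tested.

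Further genes of the scavenger receptor classes were taken from a list of 22, of which 11 were tested in the transduced cells. Of these, 4 rose, 0 fell (1 at an unadjusted p under 0.05 with limma, Lgals3bp) and 7 did not pass the test, against 2.23% of all genes called higher and 4.1% lower, and the median of the 11 was 0.07 against -0.10 over all genes. Clec7a, the beta-glucan receptor dectin, was at 36.5 and 46.2 TPM in AAV-GFP and 82.1 and 109 TPM in AAV-Shisa3 samples, a log2 fold change of 1.18 ± 0.17 (SE, limma adjusted p = 0.0249). Cd14, which hands LPS to its receptor, was at 735 and 712 TPM against 1199 and 1282 TPM, a change of 0.78 ± 0.072 (SE, limma adjusted p = 0.0153). Neither gene had overlapping groups.

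Scarb1, the class B receptor for high density lipoprotein, rose from 52.0 and 54.0 TPM with AAV-GFP to 77.9 and 71.4 TPM with AAV-Shisa3 (0.48 on the log2 scale, limma adjusted p = 0.0353). Cxcl16, a membrane chemokine that also binds oxidised LDL, rose likewise from 269 and 260 TPM to 336 and 343 TPM (0.36, limma adjusted p = 0.0410). As with Olr1 and Stab1, these 4 calls were lost when any sample was left out, with adjusted p (limma) between 0.0708 and 0.215. Lgals3bp, a secreted protein with a cysteine-rich scavenger domain, was at 1084 and 1048 TPM against 974 and 887 TPM (-0.20, limma adjusted p = 0.168), and Scarf2 was near 2.2 TPM in both groups (means 2.26 and 2.19).

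**Figure D4:**
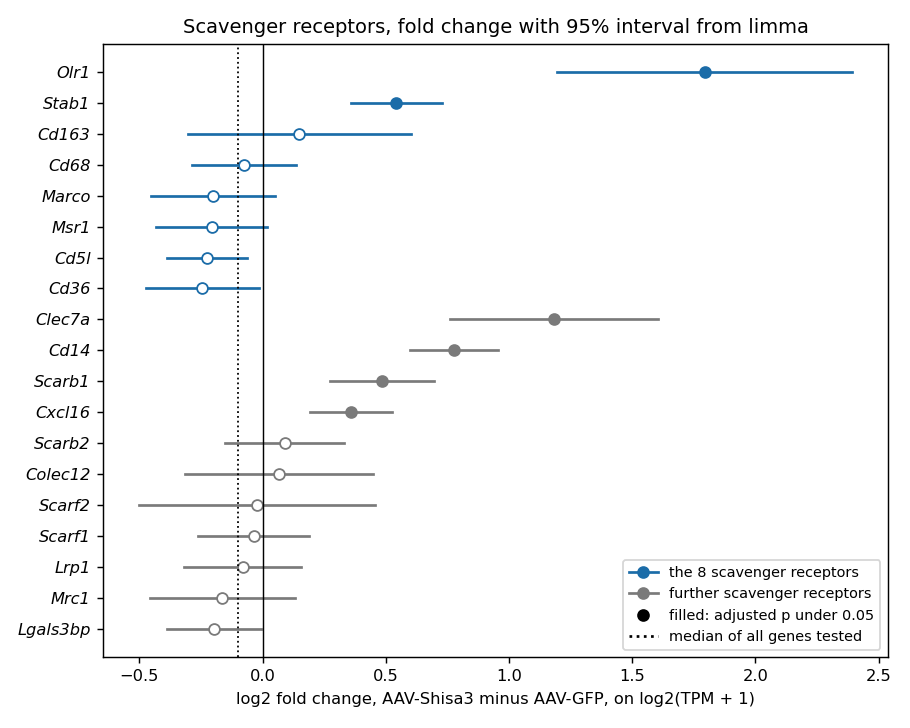
Log2 fold change, AAV-Shisa3 minus AAV-GFP on log2(TPM + 1), with its 95% interval from limma, for the 8 scavenger receptors (blue) and the 11 further scavenger receptors tested (grey); filled points have an adjusted p under 0.05 and the dotted line is the median of all genes, -0.10. Olr1 at 1.79 and Clec7a at 1.18 are farthest right, and no filled point is left of 0.

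Under LPS, 16 of the 22 further genes were kept, of which 8 were at least 2-fold higher at 4 h and 4 lower, against 22.2% and 23.6% of all genes. Scara3 and Cd5 had 0 reads at 0 h and reached the filter only through the LPS libraries. With a pseudocount of 5 or a mean value of at least 5, these genes dropped out and 6 were higher. With library totals 6 were also higher, but there Scara3 and Cd5 stayed. Scarf1 and Cxcl16 then fell below 2-fold, with log2 changes of 0.73 and 0.60. The lower count of 4 became 7 with library totals and 1 when centred. Among the 8, Ssc5d, a soluble scavenger protein, had 2, 2 and 24 reads. Cd14 had values of 2841, 32037 and 17508 at 0, 2 and 4 h, highest at 2 h, and was 6.16-fold (5.97 to 6.36) higher at 4 h. Lgals3bp was 4.06-fold (3.91 to 4.22) and Scarf2 4.78-fold (3.21 to 7.36) higher at 4 h, the last from 29 and 164 reads. Scarf1 and Cxcl16 made up the rest. Clec7a, which was higher in AAV-Shisa3 transduced cells, stood at 0.48 (0.45 to 0.50) of its 0 h value after 4 h of LPS, and Scarb1 at 0.53 (0.49 to 0.57).

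The lipid cargo of these receptors is handled by a list of 18 genes for uptake, storage, export and their regulators, all tested in the transduced cells. None rose (2 at an unadjusted p under 0.05 with limma, Lipa and Apoe), 1 fell (5 more at an unadjusted p under 0.05 with limma: Npc1, Soat1, Fabp4, Fabp5 and Nr1h3) and 17 did not pass, against 2.23% of all genes called higher and 4.1% lower, and the median was -0.14. That call was lost when any sample was left out. Acsl1, which activates long-chain fatty acids, had LPS series values of 489, 2867 and 7501 and was 15.34-fold (14.26 to 16.53) higher at 4 h, against a change of -0.24 in AAV-Shisa3 transduced cells (limma adjusted p = 0.188). Under LPS, 5 of the 18 were at least 2-fold higher at 4 h and 4 lower, against 22.2% and 23.6% of all genes. With library totals Fabp4, Nr1h3 and Nfe2l2 of those higher fell short of 2-fold, at 1.33, 1.57 and 1.29. Abcg1 and Fabp5 then also passed 2-fold downward, at 0.40 and 0.49.

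Receptors and bridging molecules for the uptake of dying cells formed a list of 15, of which 10 were tested. Of these 1 rose, Itgb5, an integrin subunit that pairs with Itgav, from 34.0 and 31.4 TPM with AAV-GFP to 52.4 and 44.8 TPM (0.56 ± 0.11, SE, limma adjusted p = 0.0443), 0 fell (at an unadjusted p under 0.05 with limma, 2 more were higher, Itgav and C1qb, and 0 lower) and 9 did not pass, against the same shares of all genes. The Itgb5 call was lost when any sample was left out (limma adjusted p of 0.104 to 0.226), without the trend (0.0868) and without the filter (0.162), and held under the other alternatives (0.0241 to 0.0433). The median was 0.09. Itgav was at 15.8 and 17.3 TPM against 21.4 and 23.8 TPM (0.42, limma adjusted p = 0.0772), and Axl, a receptor tyrosine kinase bridged to dying cells by Gas6, at 23.7 and 19.1 TPM against 24.5 and 27.7 TPM (0.28, limma adjusted p = 0.237). Under LPS, 5 of the 15 were at least 2-fold higher at 4 h and 2 lower, against 22.2% and 23.6% of all genes. Itgav was 5.98-fold (5.69 to 6.28) and Axl 4.88-fold (4.59 to 5.18) higher, while Tyro3 had 1, 3 and 24 reads and Adgrb1 had 0, 1 and 10, and both reached the filter only through the LPS libraries. Timd4, the last of the 5, had 6, 2 and 22 reads, so the higher count rests in part on genes with few reads. With library totals the 4 h folds were 3.38 for Itgav, 2.76 for Axl, 8.67 for Acsl1, 3.48 for Cd14 and 2.29 for Lgals3bp. On that scale Timd4 fell short of 2-fold at 1.75, and Itgb5 passed it downward at 0.34.

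Levels were compared between the members per length. In the LPS libraries, reads per exonic length were scaled to the same sum in each library, and on that scale Cd68 ranked highest of the 8 at every time, at 1355, 652 and 864. Stab1, although it had the most reads at 0 h, ranked below Cd68 because its transcript is long (10288 exonic bases against 1257). Stab1 made up 39.3% of the length-scaled sum of the 8 members at 0 h, 36.7% at 2 h and 18.4% at 4 h. Msr1 went from 1.29% to 8.28% and 21.1%, and Marco from 0.0909% to 1.18% and 4.24%. The sum itself was 2608, 1388 and 1735. Because this scale gives every library the same total, differences between times depend on the scaling, as with library totals. With the authors' values Cd68 stayed between 0.89 and 1.08 of its 0 h value.

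In the transduced cells Marco ranked highest of the 8 in all 4 samples and made up 25.5% to 29.9% of their summed TPM, followed by Cd68 with 21.8% to 24.2%. The Msr1 and Cd36 shares were between 14.6% and 18.4%, and exchanged ranks between samples. Stab1 made up 6.08% and 6.59% in AAV-GFP and 10.3% and 9.74% in AAV-Shisa3 samples, and Cd5l moved from above Stab1 to below it. Cd163 and Olr1 together stayed far under 1%. The summed TPM of the 8 was 5313 and 5158 in AAV-GFP and 4854 and 4787 in AAV-Shisa3 samples.

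The 2 tables were normalized separately, with other units and gene lengths, so levels are set side by side as percentiles within a sample and no test was made. Marco was at the 44.2 percentile of 21394 detected genes in untreated BMDMs, 80.9 at 2 h and 93.3 at 4 h of LPS, and at 99.6 and 99.5 of 20300 detected genes in the AAV-GFP samples. Msr1 was at 85.1 in untreated cells, 98.5 at 4 h of LPS and 99.1 in both AAV-GFP samples. Cd5l was at 84.9 in untreated cells, between 82.8 and 86.1 in the LPS series and at 97.9 in AAV-GFP samples. The untreated and AAV-GFP cells thus had unlike positions for these 3 members, and vector, culture and processing cannot be told apart as sources. Olr1 was at 28.1, 78.6 and 51.4 in the LPS series, 43.7 and 48.3 in AAV-GFP and 60.7 and 63.7 in AAV-Shisa3 samples. Cd68 stayed at or above 99.3 in all 7 samples, Stab1 at or above 97.6 and Cd36 at or above 92.7, and Cd163 was between 28.9 and 51.1.

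**Figure D5:**
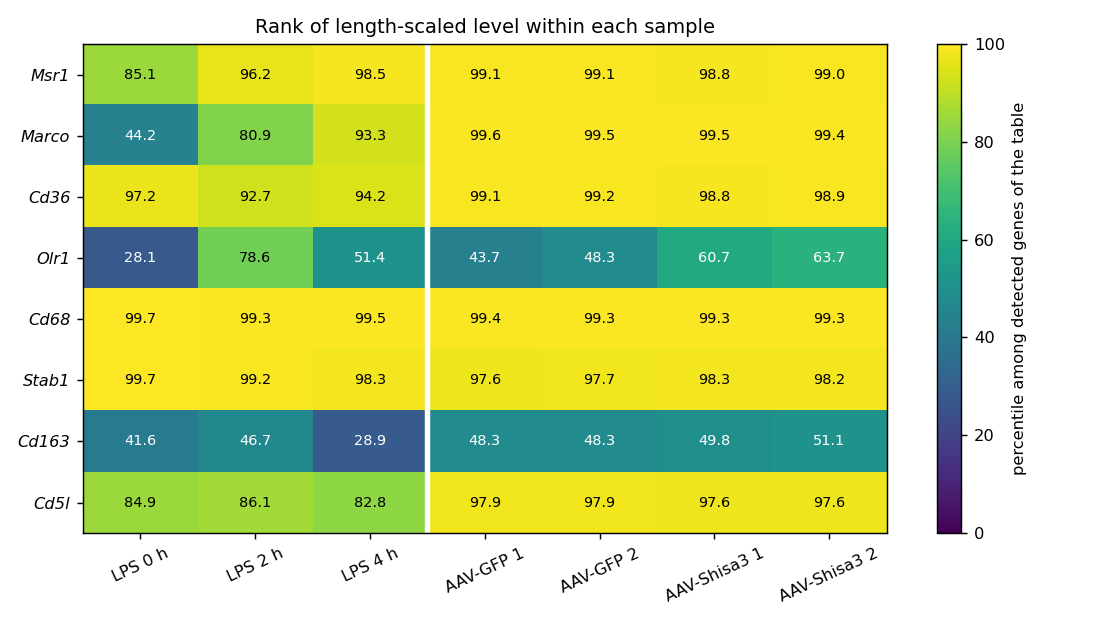
Percentile of each scavenger receptor's length-scaled level among the detected genes of its table, for the 3 LPS libraries (left of the white line) and the 4 transduced samples (right); yellow is high and blue is low. Marco spans 44.2 to 93.3 in the LPS series and is at or above 99.4 in the transduced samples, while Cd68 stays at or above 99.3 throughout.

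Over 10532 genes kept in both tables, the genes with the most similar pattern were found for each member by Euclidean distance over 3 values, the log2 changes at 2 h and 4 h of LPS and the AAV-Shisa3 fold change. Members with small changes had close neighbours: Ndufa9 and Tmem208 for Cd68 (0.01 and 0.02), Dctn1 and Arl3 for Cd5l (0.02 and 0.06), and Cryzl1 and Mfsd5 for Cd36 (both 0.05). Those of Stab1 were Serpinb1a and Abca2 (0.08 and 0.11), and those of Cd163 were Tmem238 and Arhgap22 (0.07 and 0.15). Msr1 was nearest to Xkr8 and Fabp7 (0.14 and 0.22) and Marco to Slco3a1 and Bambi-ps1 (0.22 and 0.38). Olr1 had no close neighbour, since Errfi1 and Adm, the nearest, were at 1.37 and 1.52. These 2 genes had LPS changes at 2 h like that of Olr1 (5.72 and 5.48 against 5.64) but AAV-Shisa3 changes of 0.45 and 0.50 against 1.79.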

How the data were processed

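RNA-seq of BMDMs was analysed from 2 deposited tables. For the LPS table, the authors deposited signal values that are whole read counts divided by a factor per library (100% of values whole within 0.02), so reads were recovered from the smallest step. For the AAV table, the authors deposited TPM, a unit read from the values, which sum to between 999778 and 999818 per sample; its read depth is unknown. The submitters' processing notes name mm9; the aligner and counter are not given in the sources used here. Positions and lengths came from GENCODE M21, matched by gene identifier (99.2% of identifiers). LPS folds are ratios of the values, and log2 changes and counts past 2-fold were taken on log2(value + 1) where the mean value reached 1, with no test; precision at 1 library per time is counting error only. AAV groups were compared with limma 3.58.1 (R 4.3.3, trended variance) on log2(TPM + 1) where the mean TPM reached 1, calling a Benjamini-Hochberg adjusted p under 0.05, so AAV folds of low genes are understated. Alternatives covered scaling (edgeR 4.0.16 TMM among them), filter, pseudocount, variance trend, replicate block and left-out samples.

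The members, lists and tests were chosen with earlier results of these data known. Named genes were the members, Shisa3, genes of the 3 added lists called in the AAV fit or changed by at least 2 on the log2 scale at 4 h of LPS (more than 3 reads in a library), and the 2 nearest genes per member. Scara3, Scarf1, Cd5, Nfe2l2, Abcg1, Timd4, the lipid and phagocytic genes at an unadjusted p under 0.05 and the cell markers are named for their counts. The values of 1 gene of the lipid list and 1 cell marker are not reported here.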

Additional observations from a re-analysis of the deposited data

How the results depend on the processing

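The LPS counts of members higher did not move under any alternative. With library totals, the members at least 2-fold lower went from 0 to 1 at 2 h (Cd36) and from 1 to 2 at 4 h (Stab1 and Cd163), and the further scavenger receptors lower at 4 h from 4 to 7, against 1 when centred. In the AAV comparison, the 2 members and the 4 further receptors called higher, the lipid gene called lower and Itgb5 all lost their calls without the variance trend, without the filter and with any sample left out (0 to 0 in each list, with the 2 members and 4 receptors still at an unadjusted p under 0.05 in limma), where the lone sample is assumed to vary like the others. With at least 1 TPM in every sample, 1 member was called, since Olr1 was not tested, 2 lipid genes were lower and 1 higher. Centring gave 1 lipid gene higher (Lipa) and 2 phagocytic genes higher (Itgb5 and Itgav). The counts for the lipid and phagocytic lists under these alternatives were added after seeing the data. Cd68 and Scarf2, which never passed the test, changed sign: Cd68 to 0.040 when centred and between -0.17 and 0.020 with a sample left out (0.020 without AAV-GFP replicate 1), and Scarf2 to 0.093 when centred and between -0.19 and 0.14 with a sample left out (0.14 without AAV-GFP replicate 2 and 0.023 without AAV-Shisa3 replicate 1). Calls over all genes, 250 higher and 460 lower, became 1 and 4 without the trend and 0 and 0 without the filter (1118 and 2411 at an unadjusted p under 0.05, limma). With any sample left out, most calls were lost in both directions.

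The labels do not say whether samples with the same replicate number share a preparation: the deviations of same-numbered samples correlated at 0.188 across 11218 genes, over 2 pairs. With the replicate block, 424 genes were higher and 851 lower, the same 2 members and 4 further receptors were called, 2 lipid genes were higher (Apoe and Lipa) and 4 lower, and 2 phagocytic genes were higher. Shisa3 passed under the block alone (limma adjusted p = 0.0287, against 0.0977 to 0.390 under its other alternatives). Depth limits the LPS values of Olr1, Marco and Cd163 most, with 11, 32 and 20 reads in their lowest libraries.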
